A study of Homo sapiens with 6 samples.

Results

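Antisense RNAs are transcripts read from the DNA strand opposite to a known gene, here called the sense partner. Many are long non-coding RNAs, and some begin beside the start of the partner and run away from it, so that a single stretch of DNA serves as the promoter of both. An antisense RNA can share exon sequence with its partner, lie inside an intron of it, or share no transcribed base with it at all, and many of those that start at a shared promoter are kept low through decay by the RNA exosome in the nucleus. PDE7A, the enzyme that BRL-50481 inhibits, breaks down cAMP, a messenger that acts on transcription mainly through factors that bind the cAMP response element.

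The 192 antisense genes described here were chosen by their symbols and by their measured level. Each symbol ends in AS and a digit, its mean normalized count (reads scaled for the depth of the library) over all 6 libraries was at least 30, and the gene named before AS has a row of its own. Of the 15651 genes in the table, 422 carried such a symbol, 386 of these had their sense partner in the table and 205 had a mean of at least 30. The 192 antisense genes had 191 distinct sense partners. Because the level chose the members, their levels are given as a description. ATP6V1B1-AS1, at a mean of 30.4, lay just inside the limit, and PDCD4-AS1, at 29.97, just outside. Of the 192, 22 were under 30 in the DMSO mean and 4 were under 30 in the BRL-50481 mean, and these members were carried over the limit by the group in which they were higher.

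The cells were MDA-MB-231, an established human triple-negative breast cancer (TNBC) line, so all results hold for 1 cell line. RNA was sequenced from 3 libraries of DMSO-treated cells and 3 of cells treated with BRL-50481. Sources differ on the dose: 50 μM for 72 h is stated in the study's figure legend and in the labels' protocol, but the tag of the treated samples reads 5 μM and 48 h. Libraries were strand-specific and reads were counted on the strand of the gene, which is what separates an antisense gene from a sense gene at the same place. Oligo-dT beads were used according to the labels, and ribosomal RNA depletion according to the series record, so how well antisense RNAs without a poly(A) tail were captured is not settled. Recovered reads on genes ranged from 30750573 to 33446984 per library. Of 6 genes listed as high in this line, VIM, CD44, CAV1, AXL and EGFR had group means between 6930 and 87654 normalized counts and SPARC had 14.0 and 33.8. ESR1, PTPRC and ALB had no row, PGR stood at 1.67 in DMSO and 5.61 in BRL-50481, GATA3 at 189 and 278, EPCAM at 764 and 682, CD68 at 3541 and 5040, PECAM1 at 357 and 498, and CDH5 at 1.01 and 9.00. PDE7A itself fell by 0.45 on the log2 scale (adjusted p = 0.00199).

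Positions were taken from GENCODE release 44 on hg38. By symbol, 149 antisense genes matched, 38 matched through an older symbol and 5 did not. In 79 pairs the genes lay head to head, on opposite strands with starts at most 1000 bases apart. In 89 others at least 1 exon base was shared, in 16 only the gene bodies overlapped, in 3 the genes did not overlap, and 5 pairs could not be placed. Among the members, 181 were annotated as lncRNA, 3 as protein coding (MMP24-AS1, NCBP2-AS2 and TOPORS-AS1) and 3 as transcribed pseudogenes (EMC3-AS1, PSMD5-AS1 and TP73-AS1), and 29 now carry a name that ends in DT, for divergent transcript. The table keeps the older symbols, which are used here.

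Of the head-to-head pairs, 35 had starts that point away from each other with no shared transcribed base, so the DNA between the annotated starts belongs to neither gene. These stretches are shown for the 5 such pairs among the largest changes, named further on, and for RNASEH1-AS1. That pair was chosen after its values were seen, because its genes went opposite ways. The pairs of BAIAP2-AS1, UBA6-AS1 and USP46-AS1 also went opposite ways across such stretches, which are not shown. Each stretch shown is read from the hg38 reference along the strand of the sense gene. The left end adjoins the antisense start and the right end the sense start. Capitals mark matches on either strand to TGACG (part of the cAMP response element), CCAAT (the CCAAT box) and GGGCGG (the GC box, which can overlap itself). CACGTG (the E-box) and TATAAA (the TATA box) were also searched.
NCBP2-AS2: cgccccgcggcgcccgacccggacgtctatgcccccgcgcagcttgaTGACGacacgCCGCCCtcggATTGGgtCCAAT
SUCLG2-AS1: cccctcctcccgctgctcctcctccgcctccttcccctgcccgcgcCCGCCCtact
MAN1B1-AS1: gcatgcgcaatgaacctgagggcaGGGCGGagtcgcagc
BOLA3-AS1: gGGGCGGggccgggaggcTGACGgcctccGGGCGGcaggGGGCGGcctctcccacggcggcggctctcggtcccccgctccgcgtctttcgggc
TMCC1-AS1: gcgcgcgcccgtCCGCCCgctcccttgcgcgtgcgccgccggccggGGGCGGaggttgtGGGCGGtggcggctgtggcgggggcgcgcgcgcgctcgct
RNASEH1-AS1: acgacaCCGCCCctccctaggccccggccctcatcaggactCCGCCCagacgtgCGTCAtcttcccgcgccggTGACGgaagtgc

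The stretches lie at chr3:196942595-196942673 (NCBP2-AS2, 79 bases, minus strand), chr3:67654613-67654668 (SUCLG2-AS1, 56 bases, minus strand), chr9:137086818-137086856 (MAN1B1-AS1, 39 bases, plus strand), chr2:74147913-74148006 (BOLA3-AS1, 94 bases, minus strand), chr3:129893712-129893810 (TMCC1-AS1, 99 bases, minus strand) and chr2:3558334-3558418 (RNASEH1-AS1, 85 bases, minus strand). All 6 hold a GC box, and GC content ranged from 66.7% in MAN1B1-AS1 to 85.9% in TMCC1-AS1. Of 35116 promoter windows cut to the same length, 13.9% held a GC box at the length of MAN1B1-AS1 and 31.1% at the length of TMCC1-AS1. TGACG was found in 3 of them, those of NCBP2-AS2, BOLA3-AS1 and RNASEH1-AS1, against 9.82%, 11.2% and 10.4% of windows of those lengths. CCAAT was found in NCBP2-AS2 alone, with a match on each strand, against 14.5% of windows. These matches are letters in the sequence and say nothing of binding.

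Promoters of 300 bases in RefSeq matched 152 of the antisense genes. TGACG stood in 38.8% of these and in 25.0% of 27305 promoters of all RefSeq genes, GGGCGG in 61.8% and 44.6%, CCAAT in 32.9% and 35.7%, CACGTG in 8.55% and 7.43%, and TATAAA in 5.92% and 12.0%. The complete element TGACGTCA, which contains TGACG, stood in 5.26% of them and in 1.98% of all. GC content had a median of 66.8% in the antisense promoters and 58.3% in all. The 164 matched promoters of sense partners held TGACG in 30.5%, TGACGTCA in 5.49%, GGGCGG in 67.7% and TATAAA in 7.93%. Their median GC content was also 66.8%, so most of these departures from all genes were shared by the partners, that of TGACG only in part. In 79 pairs the starts lie at most 1000 bases apart, so the 2 sets of promoters can hold some of the same DNA. The promoters of all RefSeq genes were not matched for level or GC content. Within the members, TGACG was found in 33.3% of the 42 matched promoters of antisense genes that rose and 43.3% of the 30 that fell, against 40% of the 80 that were not called. GGGCGG was found in 69.0%, 60% and 58.8% of them. The complete element TGACGTCA stood in 1 of the 42, 1 of the 30 and 6 of the 80 (2.38%, 3.33% and 7.5%).

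Of the 192 antisense genes, 57 (29.7%) were higher and 35 (18.2%) lower in BRL-50481 than in DMSO at a Benjamini-Hochberg adjusted p under 0.05 by limma over all genes tested, and 100 were not called. Over all 15246 genes tested, 28.9% were higher and 29.8% lower. That background includes genes under the limit of 30. Of the 12683 genes with a mean in the range of the members, 31.0% were higher and 33.9% lower. The share of antisense genes that rose was close to both backgrounds, and the share that fell was below both. Sense partners were called more often, with 59 (30.7%) higher and 53 (27.6%) lower. The median change, on the scale of log2(normalized count + 1), was 0.10 for antisense genes, with quartiles at -0.23 and 0.47, -0.01 for sense partners and 0.01 for all genes. With quantile normalization the split turned, to 44 antisense genes higher and 49 lower with a median of -0.02, so that 47.3% of called members were higher against 62.0% in the main result. Among the 166 members at 30 or more in both groups, 41 (24.7%) were higher and 32 (19.3%) lower. Both shares were below the backgrounds, to which a limit in both groups was not applied. Without DMSO replicate 3, 23 antisense genes were lower.

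Groups did not overlap for 104 antisense genes (54.2%) and 119 sense partners (62.0%), against 64.2% of all genes tested. Antisense genes were less precisely measured, with a median SE of 0.17 against 0.07 for sense partners and 0.08 for all genes. Calls were also counted by level. At means from 30 to 100, 30.7% of 101 antisense genes were higher and 11.9% lower, against 33.1% and 16.5% of the 1343 genes at that level. From 100 to 300, 25.5% of 51 were higher and 17.6% lower, against 35.7% and 22.0% of 1663 genes. At 300 and above, 32.5% of 40 were higher and 35% lower, against 29.9% and 38.6% of 9792 genes. LINC genes, intergenic non-coding genes named by number, were higher in 46 and lower in 14 of 101 at a mean of 30 or more, with a median of 0.33. By level, 41.3% of LINC genes rose from 30 to 100, 48.5% from 100 to 300 and 50% at 300 and above, larger shares than those of the antisense genes. These shares were not tested against each other.

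Each antisense gene was then set against its own partner within every library, as the difference of their log2 values, which a single scaling factor per library leaves almost as it is. This difference rose in 43 pairs (22.4%) and fell in 33 (17.2%), and 116 were not called. Over all 361 pairs in which both genes passed the filter, 20.2% rose and 11.4% fell. Since 192 of the 361 pairs are the members, the 2 sets of shares are not independent. The median difference was 0.12 in members, ranging from -2.17 to 2.20, and 0.24 over all pairs. The balance of the calls turned with quantile normalization, which is no single factor, at 33 pairs that rose and 41 that fell. Among the 166 members with a mean of at least 30 in both groups, 32 pairs rose and 30 fell, with a median difference of 0.02. Without a trend of variance on level, 15 pairs fell. The plot of antisense change against sense change holds points in all of its quadrants.

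**Figure D1:**
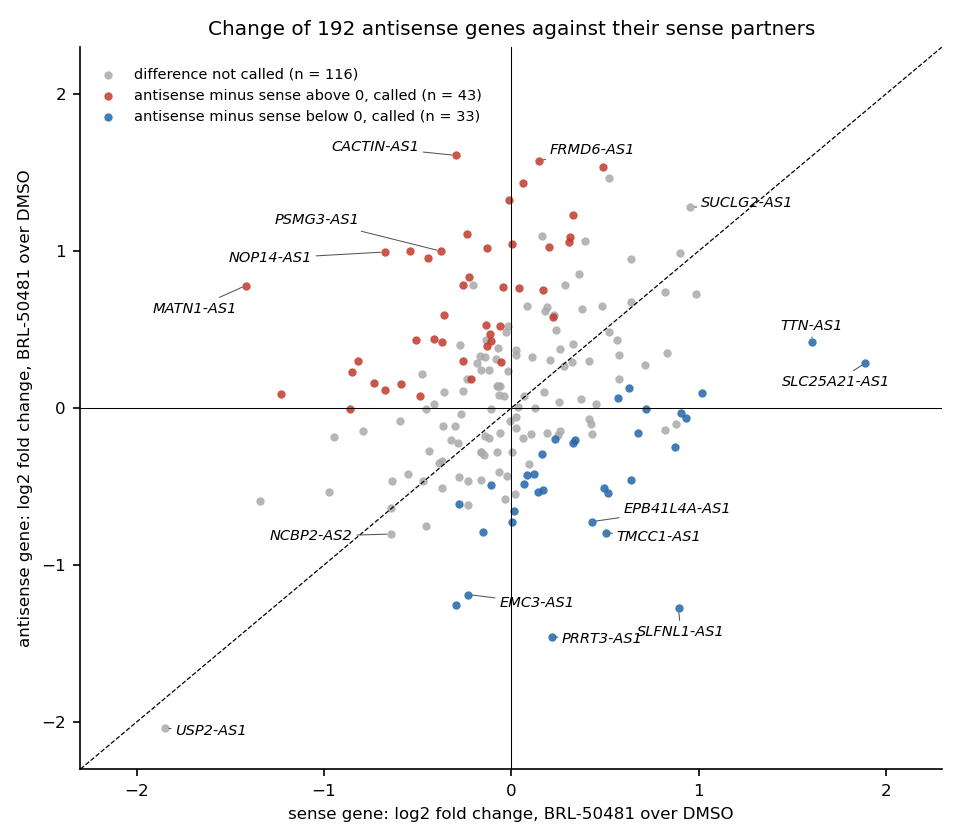
Each point is 1 of the 192 pairs, with the log2 fold change (BRL-50481 over DMSO) of the sense gene on the x axis and of the antisense gene on the y axis. Coloured points are the 43 pairs called above 0 (red) and 33 called below 0 (blue) for the difference of the 2 changes, and the dashed line marks equal change. USP2-AS1 at the lower left lies near that line, while CACTIN-AS1 and SLFNL1-AS1 lie far from it.

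Both genes of a pair were called in 59 pairs. In 29 both rose, in 13 both fell, in 11 the antisense gene rose and the partner fell, and in 6 the antisense gene fell and the partner rose. All 17 opposite pairs were called for the difference as well, as were 11 of the 42 pairs that moved one way. In 17 pairs the antisense gene rose and the partner was not called, in 16 it fell and the partner was not called, in 24 only the partner rose, in 29 only the partner fell, and in 47 neither was called. Across the 192 pairs, the changes of the 2 genes had a Pearson r of 0.20 and a Spearman rho of 0.17. The points share the same 6 libraries and pairs are not independent replicates, so no p is given.

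By position, antisense genes rose in 25 (31.6%) and fell in 15 (19.0%) of the 79 head-to-head pairs, with a median of 0.12. Their partners rose in 22 and fell in 24, with a median of -0.03. Head-to-head pairs that share exons are counted in that class only, and in 44 of the 79 the starts overlapped. In the 89 other pairs with shared exons, antisense genes rose in 26 (29.2%) and fell in 15 (16.9%), with a median of 0.10. Partners rose in 29 and fell in 22, with a median of 0.04. The antisense shares in both classes were close to those of all members, at 29.7% and 18.2%. The difference rose in 17 and fell in 11 head-to-head pairs, and rose in 18 and fell in 17 pairs with shared exons. Where both genes were called, 18 of 28 head-to-head pairs and 16 of 22 pairs with shared exons moved one way. All 6 pairs with only overlapping bodies in which both genes were called moved one way, 3 up and 3 down. The classes were not tested against each other.

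**Figure D2:**
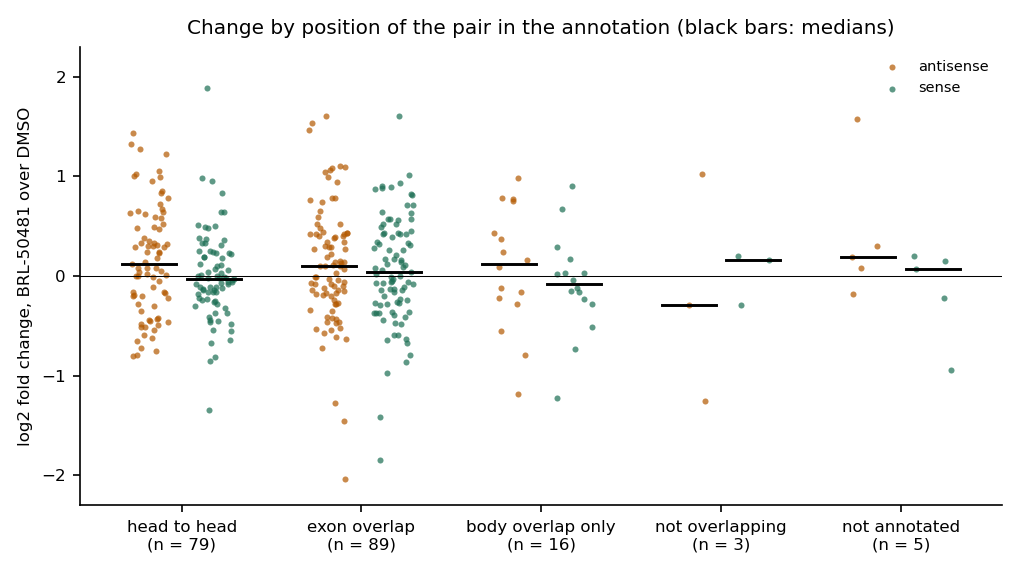
Log2 fold change (BRL-50481 over DMSO) of each antisense gene (brown) and each sense partner (green), by position of the pair in GENCODE, with a black bar at each median. Medians lie near 0 in the 3 large classes and single genes spread from -2.04 to 1.89.

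Antisense genes were lower than their partners in most pairs. Per kilobase of annotated exon, the antisense level was a median of 0.13 times the sense level over the 187 pairs with lengths, and exceeded it in 37. By count alone, the antisense gene was under 10% of its partner in 100 pairs, under 2% in 32 and under 1% in 12, and above it in 34. Exons were shared, in any class of position, and the antisense count was under 2% of the sense count in 18 pairs. In these, 8 antisense genes rose (44.4%) and 2 fell (11.1%), against 28.9% and 29.8% of all genes tested. Of all 192 members, 29.7% rose and 18.2% fell, so much of the gap in falls was shared by the members as a whole. The 18 include TMPO-AS1, which passed the limit of level only through BRL-50481. Partners rose in 9 of the 18 pairs (50%) and fell in 4 (22.2%). Of the 8 antisense genes that rose, 6 had a partner that rose, 1 a partner that fell and 1 a partner not called. Of the 2 that fell, 1 had a partner that rose and 1 a partner not called. Across the 18 pairs, the changes of the 2 genes had a Pearson r of 0.04. The share of reads on the wrong strand was not measured, and its part in the antisense levels was not tested. Nor was its part tested in sense genes far below an antisense gene with shared exons, such as LRRC75A and MMP24. In bulk RNA, fewer cells with a transcript and less transcript per cell cannot be told apart.

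The 5 most abundant antisense genes were LRRC75A-AS1, MMP24-AS1, THAP9-AS1, PAX8-AS1 and AFAP1-AS1, and 3 of them fell. LRRC75A-AS1 at chr17:16438767-16480249, annotated as SNHG29, a host of small nucleolar RNAs, shares 500 exon bases with LRRC75A and 73 with another gene on its own strand. It gave 28540, 31298 and 30958 normalized counts in DMSO and 20056, 19101 and 20165 in BRL-50481. The groups were far apart, and the antisense gene fell by 0.61 ± 0.05 (SE) on the log2 scale (adjusted p = 3.06e-07). LRRC75A, a leucine-rich repeat protein, gave 311, 304 and 314 in DMSO and 251, 232 and 286 in BRL-50481. It fell by 0.28 ± 0.10 (adjusted p = 0.0314), a call that was lost without DMSO replicate 3, BRL-50481 replicate 1 or BRL-50481 replicate 2 (adjusted p = 0.0790, 0.0866 and 0.138) and by DESeq2 (0.0555). The antisense gene fell more than its partner, with a difference of -0.34 ± 0.07 (adjusted p = 0.00247) that was not called with quantile normalization (adjusted p = 0.102).

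MMP24-AS1 at chr20:35201745-35278131, annotated as the protein-coding gene MMP24OS, rose together with MMP24, a membrane-type matrix metalloproteinase. It gave 2703, 2994 and 3201 in DMSO and 4887, 4952 and 4980 in BRL-50481, a rise of 0.74 ± 0.06 (adjusted p = 4.13e-07). MMP24 gave 72.4, 52.9 and 75.6 in DMSO and 124, 124 and 106 in BRL-50481, a rise of 0.82 ± 0.17 (adjusted p = 0.00106). Groups of both genes were apart, and the difference between the changes was -0.08 ± 0.13 (adjusted p = 0.667). The genes share 806 exon bases, and MMP24-AS1 shares 141 with a gene on its own strand.

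THAP9-AS1 at chr4:82893009-82900960 fell while its head-to-head partner THAP9, a gene derived from a DNA transposase, was not called. The antisense gene gave 2989, 3164 and 3237 in DMSO and 1986, 1830 and 2155 in BRL-50481, and THAP9 gave 195, 181 and 200 against 189, 196 and 197. THAP9-AS1 fell by 0.66 ± 0.06 (adjusted p = 2.07e-06), and relative to THAP9 by 0.67 ± 0.09 (adjusted p = 0.000253). It shares 482 exon bases with a gene on its own strand, so its count is uncertain to that extent.

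PAX8-AS1 at chr2:113211421-113276581 gave 2278, 2270 and 2145 in DMSO and 1867, 1773 and 1874 in BRL-50481, and fell by 0.28 ± 0.05 (adjusted p = 0.000709). PAX8, a paired-box transcription factor, gave 440, 436 and 411 against 365, 402 and 383. The groups of PAX8 did not overlap either, but the change was not called (-0.16 ± 0.08, adjusted p = 0.111) and the difference between the genes was not called (adjusted p = 0.298).

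AFAP1-AS1 at chr4:7754077-7778928 shares 5135 exon bases with AFAP1, an adaptor that binds actin filaments. It gave 1321, 1217 and 1215 in DMSO and 1305, 1318 and 1300 in BRL-50481, with overlapping groups. AFAP1 gave 7454, 5995 and 6388 against 9711, 9944 and 9648 and rose by 0.57 ± 0.07 (adjusted p = 1.01e-05). Relative to AFAP1, the antisense gene fell by 0.50 ± 0.09 (adjusted p = 0.00182).

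The largest antisense rise was that of CACTIN-AS1 at chr19:3607247-3613930, which shares 1035 exon bases with CACTIN, a splicing factor. CACTIN-AS1 gave 15.9, 20.6 and 20.4 in DMSO and 55.4, 65.5 and 58.2 in BRL-50481, a rise of 1.61 ± 0.22 (adjusted p = 4.01e-05). CACTIN gave 748, 870 and 787 against 653, 646 and 657 and fell by 0.29 ± 0.07 (adjusted p = 0.00401). The genes moved apart by 1.90 ± 0.23 (adjusted p = 0.000157), and the groups of both were fully separate. CACTIN-AS1, FRMD6-AS1, C1RL-AS1, ITGB2-AS1, BOLA3-AS1 and TMPO-AS1 had a DMSO mean under 30 and passed the limit of level only through BRL-50481, so their place among the largest rises is a description. Among the members with a mean of at least 30 in both groups the highest change was 1.33, that of MAN1B1-AS1.

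FRMD6-AS1, which had no match in the annotation, rose from 13.9, 19.6 and 12.3 to 33.2, 61.4 and 49.4, by 1.58 ± 0.29 (adjusted p = 0.000446). FRMD6, a FERM-domain protein linked to the Hippo pathway, gave 11525, 9698 and 10337 in DMSO and 11747, 11745 and 11425 in BRL-50481. Its groups overlapped, and its rise of 0.15 ± 0.06 (adjusted p = 0.0414) was lost without any 1 of 5 libraries, all but DMSO replicate 1 (adjusted p = 0.0792 to 0.159), and by DESeq2 (adjusted p = 0.0511). The difference of 1.43 ± 0.31 (adjusted p = 0.00437) kept its call without each library.

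C1RL-AS1 and ITGB2-AS1, both with shared exons, rose with their partners. C1RL-AS1 at chr12:7108052-7122524 gave 34.7, 24.5 and 11.2 in DMSO and 56.4, 72.5 and 63.0 in BRL-50481, a rise of 1.53 ± 0.33 (adjusted p = 0.00134). C1RL, a protease related to complement C1r, gave 211, 276 and 228 against 376, 311 and 318 and rose by 0.49 ± 0.12 (adjusted p = 0.00303). The antisense rise was the larger by 1.04 ± 0.36 (adjusted p = 0.0427), but not without DMSO replicate 2, DMSO replicate 3 or any BRL-50481 library (adjusted p = 0.0787 to 0.135), nor with quantile normalization (0.0709). ITGB2-AS1 at chr21:44921051-44929680 gave 23.8, 11.8 and 24.5 against 42.3, 51.4 and 73.7, a rise of 1.46 ± 0.31 (adjusted p = 0.00118). ITGB2, the beta subunit of leukocyte integrins, gave 497, 518 and 450 against 734, 712 and 657 and rose by 0.52 ± 0.08 (adjusted p = 0.000109). The difference of 0.94 ± 0.35 in this pair was not called (adjusted p = 0.0533).

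BOLA3-AS1 and MAN1B1-AS1, whose starts lie beside those of their partners across the short GC-rich stretches printed above, rose without a called change of the partner. BOLA3-AS1 gave 21.8, 20.6 and 12.3 in DMSO and 54.4, 57.4 and 38.8 in BRL-50481, a rise of 1.43 ± 0.28 (adjusted p = 0.000643). BOLA3, an assembly factor of mitochondrial iron-sulfur clusters, gave 360, 504 and 443 against 481, 416 and 460, with overlapping groups (0.06 ± 0.11, adjusted p = 0.649). The difference was 1.37 ± 0.31 (adjusted p = 0.00566). MAN1B1-AS1 gave 24.8, 42.1 and 28.6 against 85.6, 68.5 and 85.3, a rise of 1.33 ± 0.22 (adjusted p = 0.000204). MAN1B1, a mannosidase that trims glycans in the secretory pathway, gave 3238, 3652 and 3278 against 3197, 3529 and 3366, and its groups overlapped (-0.01 ± 0.06, adjusted p = 0.904). This pair differed by 1.34 ± 0.23 (adjusted p = 0.00141).

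SUCLG2-AS1 also begins beside its partner's start, and it rose with the partner. It gave 42.7, 34.3 and 27.6 in DMSO and 93.6, 80.6 and 80.5 in BRL-50481, a rise of 1.28 ± 0.20 (adjusted p = 0.000115). SUCLG2, the GTP-specific subunit of succinyl-CoA ligase in the citric acid cycle, gave 2075, 2077 and 2192 against 4091, 4097 and 4119 and rose by 0.96 ± 0.05 (adjusted p = 9.69e-09). The difference of 0.32 ± 0.23 was not called (adjusted p = 0.289). TMPO-AS1 at chr12:98512973-98516422, which overlaps 646 exon bases of TMPO at its start, gave 23.8, 23.5 and 29.6 against 49.3, 73.5 and 63.0, a rise of 1.23 ± 0.22 (adjusted p = 0.000381). TMPO, which encodes lamina-associated proteins, gave 7944, 7437 and 7912 against 10163, 9613 and 9517 and rose by 0.33 ± 0.05 (adjusted p = 6.3e-05). TMPO-AS1 rose more than TMPO by 0.90 ± 0.24 (adjusted p = 0.0138), a call lost without BRL-50481 replicate 2 (adjusted p = 0.0718), and stood at 0.5% of the TMPO count.

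**Figure D3:**
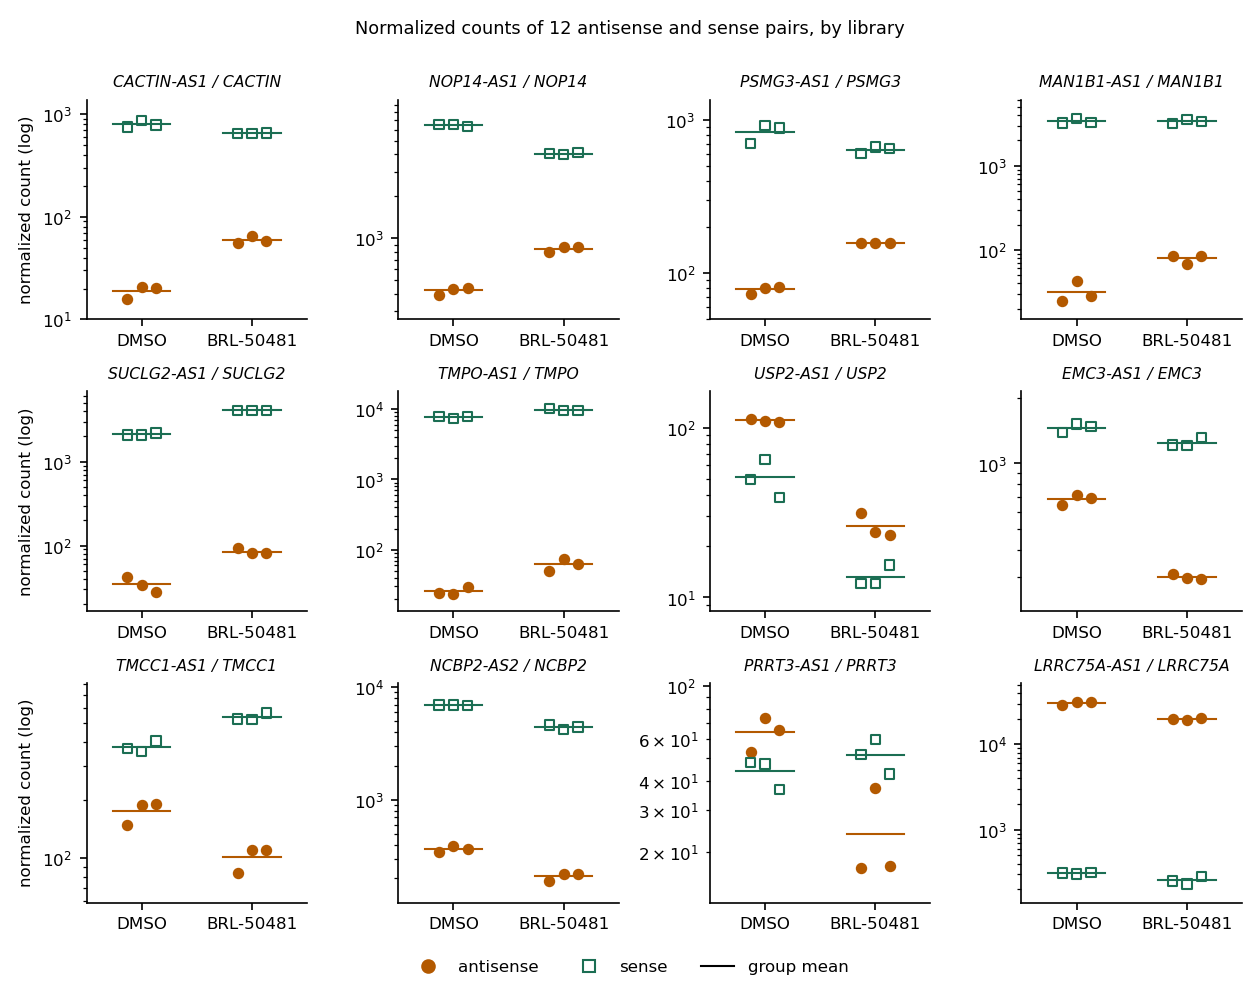
Normalized counts on a log axis in each library for 12 pairs, with antisense genes as filled brown circles, sense partners as open green squares and a line at each group mean. CACTIN-AS1, NOP14-AS1 and PSMG3-AS1 rose while their partners fell, TMCC1-AS1 fell while TMCC1 rose, and both genes fell in the pairs of USP2-AS1, EMC3-AS1, NCBP2-AS2 and LRRC75A-AS1.

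The largest antisense fall was that of USP2-AS1, and its partner fell with it. USP2-AS1 at chr11:119356467-119659284 shares 1142 exon bases with USP2, a ubiquitin-specific protease, and 106 with another gene on its own strand. It gave 112, 110 and 108 in DMSO and 31.2, 24.2 and 23.3 in BRL-50481, and fell by 2.04 ± 0.19 on the log2 scale (adjusted p = 1e-06). USP2 gave 49.6, 64.7 and 38.8 against 12.1, 12.1 and 15.5 and fell by 1.85 ± 0.27 (adjusted p = 6.28e-05). The changes differed by -0.19 ± 0.25 (adjusted p = 0.597). USP2 was also the sense partner with the largest fall of the 191. USP2-AS1, PRRT3-AS1 and SLFNL1-AS1 had a BRL-50481 mean under 30 and passed the limit of level only through DMSO, and among the members with a mean of at least 30 in both groups the lowest change was -1.25, that of FOXD2-AS1.

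PRRT3-AS1 at chr3:9947404-9954787 fell without PRRT3, a proline-rich transmembrane protein with which it shares 201 exon bases. It gave 52.6, 73.5 and 65.4 in DMSO and 17.1, 37.3 and 17.4 in BRL-50481, and the change was -1.46 ± 0.29 (adjusted p = 0.000792). PRRT3 gave 47.6, 47.0 and 36.8 against 51.3, 59.4 and 42.6, with overlapping groups. The pair differed by -1.67 ± 0.28 (adjusted p = 0.00125). SLFNL1-AS1 at chr1:41014590-41043890 gave 61.5, 71.5 and 54.1 against 21.1, 27.2 and 27.1 and fell, with a change of -1.28 ± 0.22 (adjusted p = 0.000209). SLFNL1, a schlafen-like gene, stood between 0 and 9.92 in all 6 libraries, with overlapping groups. The difference of -2.17 ± 0.65 (adjusted p = 0.0217), the lowest of all members, rests on these few reads and was lost without DMSO replicate 2, BRL-50481 replicate 1 or BRL-50481 replicate 2 (adjusted p = 0.0810, 0.0841 and 0.0630).

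FOXD2-AS1 at chr1:47432133-47434641 begins 3403 bases from FOXD2, a forkhead transcription factor, and does not overlap it. It gave 194, 246 and 253 in DMSO and 97.7, 108 and 83.4 in BRL-50481, a change of -1.25 ± 0.14 (adjusted p = 7.5e-06), while FOXD2 stood between 11.8 and 26.8 with overlapping groups. The difference of -0.96 ± 0.34 (adjusted p = 0.0455) was lost without DMSO replicate 2, DMSO replicate 3, BRL-50481 replicate 1 or BRL-50481 replicate 3 (adjusted p = 0.203, 0.0609, 0.0787 and 0.158), with quantile normalization (0.0730) and with a pseudocount of 0.5 (0.0613). FOXP4-AS1 at chr6:41452889-41548621 fell from 94.3, 118 and 101 to 48.3, 60.4 and 72.7, with a change of -0.79 ± 0.18 (adjusted p = 0.00207). FOXP4, another forkhead factor, gave 5440, 5828 and 5663 against 4885, 5491 and 4871, and its groups overlapped. Its fall of 0.15 ± 0.06 (adjusted p = 0.0324) was lost without DMSO replicate 2, DMSO replicate 3, BRL-50481 replicate 1 or BRL-50481 replicate 3 (adjusted p = 0.0808 to 0.153), and with quantile normalization (0.154) or median centring (0.0779). The difference of -0.64 ± 0.20 (adjusted p = 0.029) was lost without DMSO replicate 2, DMSO replicate 3, BRL-50481 replicate 1 or BRL-50481 replicate 2 (adjusted p = 0.0510 to 0.106).

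EMC3-AS1 at chr3:9987904-9994331, annotated as a transcribed pseudogene inside the body of EMC3, shares no exon base with it but 140 with a gene on its own strand. It gave 645, 718 and 693 in DMSO and 309, 297 and 294 in BRL-50481, with narrow groups far apart, and fell by 1.19 ± 0.08 (adjusted p = 7.94e-08). EMC3, a subunit of the complex that inserts proteins into the endoplasmic reticulum membrane, gave 1387, 1523 and 1486 against 1216, 1213 and 1315 and fell by 0.23 ± 0.06 (adjusted p = 0.00669). The antisense fall was the larger, with a difference of -0.96 ± 0.11 (adjusted p = 0.000157).

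NCBP2-AS2 at chr3:196942674-196943543, annotated as the protein-coding gene NCBP2AS2, fell with its neighbour. NCBP2-AS2 gave 340, 388 and 367 in DMSO and 189, 220 and 218 in BRL-50481, and fell by 0.80 ± 0.10 (adjusted p = 1.82e-05). NCBP2, the small subunit of the nuclear cap-binding complex, gave 6936, 6963 and 6838 against 4620, 4235 and 4434 and fell by 0.64 ± 0.05 (adjusted p = 2e-07). No overlap was seen between the groups of either gene, and the changes differed by -0.16 ± 0.14 (adjusted p = 0.397).

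TMCC1-AS1 at chr3:129893811-129918578 and TMCC1, a membrane protein of the endoplasmic reticulum, went opposite ways from starts 100 bases apart. TMCC1-AS1 gave 148, 189 and 190 in DMSO and 83.6, 110 and 110 in BRL-50481, a change of -0.79 ± 0.15 (adjusted p = 0.000594). TMCC1 gave 371, 358 and 404 against 526, 521 and 564 and rose by 0.51 ± 0.08 (adjusted p = 0.000167). Groups of both genes were apart, and the pair differed by -1.30 ± 0.18 (adjusted p = 0.000275).

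The remaining pairs with opposite calls included the best measured one. NOP14-AS1 at chr4:2934882-2961738 shares 737 exon bases with NOP14, a nucleolar factor of small ribosomal subunit assembly. It gave 394, 433 and 445 in DMSO and 802, 869 and 864 in BRL-50481, a rise of 0.99 ± 0.08 (adjusted p = 2.72e-07). NOP14 gave 6493, 6553 and 6292 against 4035, 3983 and 4099 and fell by 0.67 ± 0.05 (adjusted p = 8.24e-08). The difference of 1.67 ± 0.11 had an adjusted p of 7.46e-07.

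MATN1-AS1 at chr1:30718504-30726827 gave 28.8, 37.2 and 27.6 against 57.4, 48.3 and 56.2, a rise of 0.78 ± 0.21 (adjusted p = 0.00609). MATN1, a cartilage matrix protein, stood at 7.94, 7.84 and 12.3 in DMSO and 1.01, 3.02 and 5.82 in BRL-50481. Its change of -1.42 ± 0.56 (adjusted p = 0.0452) was lost without any 1 library other than BRL-50481 replicate 3 (adjusted p = 0.0536 to 0.149) by DESeq2 (0.101) and by edgeR with TMM and no filter (0.0551), and the difference of 2.20 ± 0.40 (adjusted p = 0.00182), the highest of all members, rests on these low counts.

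Of the other opposite pairs, 4 are given with values that were seen before they were chosen. PSMG3-AS1 rose from 73.4, 80.3 and 80.7 to 157, 158 and 156, by 1.00 ± 0.13 (adjusted p = 2.1e-05). Its partner PSMG3, a chaperone of proteasome assembly, gave 701, 918 and 885 against 603, 666 and 649 and fell by 0.38 ± 0.10 (adjusted p = 0.00457). ZBED5-AS1 gave 244, 268 and 233 in DMSO and 483, 447 and 404 in BRL-50481, a rise of 0.84 ± 0.10 (adjusted p = 9.98e-06), against a fall of ZBED5 by 0.23 ± 0.06 (adjusted p = 0.00577). EPB41L4A-AS1, which shares 2200 exon bases with EPB41L4A, a gene of the band 4.1 family, was among the more abundant members. It gave 1355, 1574 and 1516 against 866, 864 and 959 and fell by 0.72 ± 0.07 (adjusted p = 2.54e-06), while EPB41L4A gave 167, 148 and 153 against 251, 194 and 191 and rose by 0.43 ± 0.13 (adjusted p = 0.0111). RNASEH1-AS1 gave 326, 411 and 451 against 264, 284 and 279 and fell by 0.51 ± 0.12 (adjusted p = 0.00191). RNASEH1, the enzyme that cuts RNA paired with DNA, gave 344, 264 and 308 against 424, 415 and 448 and rose by 0.49 ± 0.10 (adjusted p = 0.00109). Other opposite pairs included those of BAIAP2-AS1, TAF1A-AS1, TOPORS-AS1 and USP46-AS1, which rose, and LYPLAL1-AS1, TGFB2-AS1 and UBA6-AS1, which fell.

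**Figure D4:**
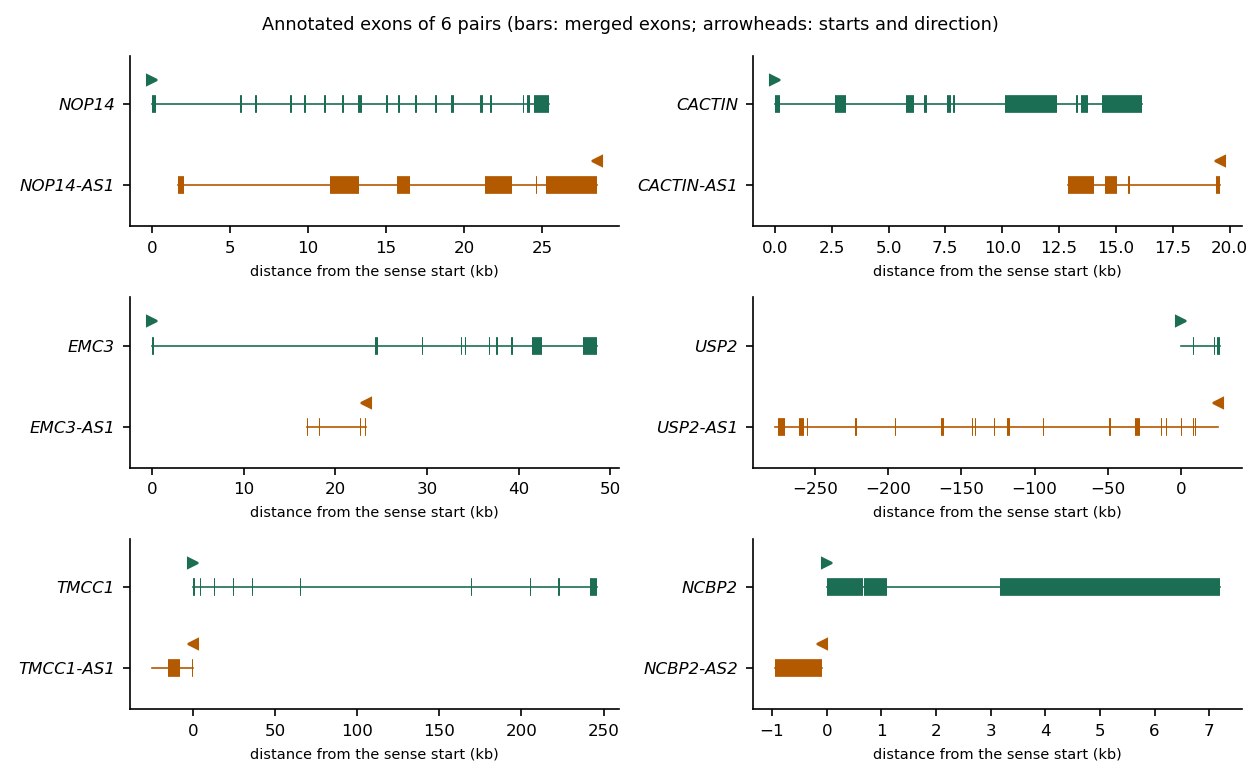
Annotated exons (bars) of 6 pairs in GENCODE, drawn along the sense strand as distance in kilobases from the start of the sense gene, with arrowheads at the starts. NOP14-AS1, CACTIN-AS1 and USP2-AS1 overlap exons of their partners, EMC3-AS1 lies within the body of EMC3 without a shared exon base, and TMCC1-AS1 and NCBP2-AS2 begin upstream of their partners and run away from them.

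In 2 of the pairs with the lowest differences the antisense gene itself was not called. SLC25A21-AS1 at chr14:37171888-37173811 gave 48.6, 61.7 and 55.2 in DMSO and 80.5, 69.5 and 54.3 in BRL-50481, with overlapping groups. SLC25A21, a mitochondrial carrier of dicarboxylates, stood at 5.95, 3.92 and 4.09 against 24.2, 18.1 and 17.4 and rose by 1.89 ± 0.38 (adjusted p = 0.000882), the largest rise of any sense partner. The difference was -1.60 ± 0.24 (adjusted p = 0.000432). TTN-AS1 at chr2:178521183-178779963, opposite the muscle gene TTN, gave 132, 62.7 and 78.7 against 120, 115 and 114, and TTN stood between 0 and 10.1 in all libraries. Their difference of -1.19 ± 0.36 (adjusted p = 0.0237) was lost without DMSO replicate 2, BRL-50481 replicate 1 or BRL-50481 replicate 2 (adjusted p = 0.0578, 0.105 and 0.0797) or with a pseudocount of 4 (0.0595), without a trend (0.117) or with the trend on the lower gene (0.176). ATP6V1B1-AS1, just inside the limit of level, gave 18.9, 34.3 and 35.8 in DMSO and 38.3, 22.2 and 33.0 in BRL-50481 and was not called (adjusted p = 0.822). ATP6V1B1, a subunit of the vacuolar proton pump, was at 10.9, 17.6 and 10.2 against 3.02, 6.04 and 5.82, and its change of -1.23 ± 0.44 (adjusted p = 0.0296) was lost without DMSO replicate 2 or BRL-50481 replicate 1 (adjusted p = 0.124 and 0.0932) and by DESeq2 (0.0639). The difference of 1.32 ± 0.38 (adjusted p = 0.0194) was lost without DMSO replicate 1, DMSO replicate 2 or BRL-50481 replicate 1 (adjusted p = 0.0880, 0.0860 and 0.105).

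Genes that handle antisense transcripts were read from the same fit. Of 18 genes of the RNA exosome and its cofactors, which degrade many nuclear non-coding RNAs, 11 fell and 1 rose, with a median of -0.30 against 0.01 over all genes, of which 29.8% fell and 28.9% rose. The core subunits EXOSC5 and EXOSC4 fell by 0.99 ± 0.08 and 0.90 ± 0.09, the cofactor MPHOSPH6 by 0.61 ± 0.07 and the nuclease DIS3 by 0.32 ± 0.07. EXOSC8, EXOSC9, the nuclease EXOSC10 and the helicase MTREX were not called, at 0.03, 0.03, 0.05 and 0.01, and ZFC3H1 rose by 0.18 ± 0.06. That rise was lost in 4 of the 6 fits that left out 1 library, all but those without DMSO replicate 1 or DMSO replicate 3, and across all alternatives 10 or 11 genes of the list fell. Of 14 Integrator genes, a complex that ends transcription of many short and non-coding RNAs, 4 rose, led by INTS3 at 0.83 ± 0.06 and INTS1 at 0.75 ± 0.06, and 4 fell, led by INTS10 at -0.46 ± 0.06, with a median of 0.07. Of 15 genes that bind or process double-stranded RNA, 4 rose and 4 fell, with a median of 0.04. The rises were those of the sensors RIGI, by 1.03 ± 0.06, and IFIH1, by 0.51 ± 0.07, of the editing enzyme ADAR, by 0.25 ± 0.06, and of the kinase EIF2AK2, by 0.25 ± 0.08. In each direction the share called was 28.6% of the Integrator list and 26.7% of the double-stranded RNA list, close to the shares over all genes. Every listed gene but PABPN1 had a mean over 300, and at that level 29.9% of all genes rose and 38.6% fell. Without DMSO replicate 1, 7 genes of the double-stranded RNA list and 6 of the Integrator list rose. Whether these genes have any part in the antisense levels was not tested.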

How the data were processed

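RNA-seq was analysed for 6 MDA-MB-231 libraries, 3 treated with DMSO and 3 with BRL-50481, grouped by the sample labels. Per the labels and the methods, the authors aligned reads to hg38 with STAR 2.7.1a, counted them per gene and strand with HTSeq and normalized them with DESeq2 1.28. The deposited signal of each gene is a read count scaled by the DESeq2 size factor of its library. In all 6 libraries 100% of the values came out as whole reads (tolerance 0.001 reads), and the recovered reads, 30750573 to 33446984 per library, were used for the count tests. The authors' columns of fold changes, errors and p-values, and their mean, were not used.

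Genes that reached 4 normalized counts in 3 or more libraries were tested with limma 3.58.1 in R 4.3.3 (eBayes with a trend) on log2(normalized count + 1), with group as the only term and Benjamini-Hochberg adjustment over 15246 genes at 0.05. A log2 fold change on this scale understates that of low genes. For each pair, limma was run on log2(antisense + 1) minus log2(sense + 1), with a trend on the antisense level, over 361 pairs. The study gives 3 biological replicates a group, and the labels do not say how cultures were separated, so p-values measure the spread between these libraries. Other settings tried were a pseudocount of 0.5 or 4, testing without the filter, a mean of at least 20, quantile normalization, median centring, no trend, blocking on the replicate number, each library left out in turn, edgeR 4.0.16 and DESeq2 1.42.0 on recovered reads, members at 100 or more, and a fold threshold. A trend on the lower gene of a pair and members at 30 in both groups were chosen after seeing the data. Procedures were tested on simulated data. Plots used Python 3.11.15 and matplotlib 3.10.9.

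Named genes were the 5 highest members, the 8 largest rises and falls among called members with separate groups, the 5 largest differences each way among called pairs, and the members nearest the limit. Some members that this rule names are not reported here. The members, gene lists and markers were chosen with earlier results of these data known. Overlaps are those of GENCODE, while the authors counted on another annotation. Sequences between starts are from hg38 and promoters from the RefSeq table.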

Additional observations from a re-analysis of the deposited data

How the results depend on the processing

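Counts of calls stayed within 1.5 times the reported ones under both pseudocounts, without the filter, with a mean of at least 20, with quantile normalization, median centring, edgeR and DESeq2, for all counts that these alternatives give. Limma without a trend left 15 pairs with the antisense gene falling relative to its partner, against 33. Leaving out 1 library gave 47 to 61 antisense genes higher and 23 to 36 lower, 49 to 67 partners higher and 44 to 64 lower, and 29 to 47 pairs above 0 and 23 to 34 below 0. Members with a mean of at least 100 had 26 antisense genes higher and 23 lower, 34 partners higher and 22 lower, and 20 pairs above 0 and 25 below 0. With a further threshold of 1 on the log2 scale, 17 antisense genes were higher and 5 lower, 2 partners higher and 4 lower, and 18 pairs above 0 and 10 below, while among members at 30 in both groups 6 antisense genes were higher and 2 lower past that threshold. These settings test fewer members or ask for more. By edgeR with TMM 57 antisense genes were higher and 33 lower, and by DESeq2 50 and 31. Of 63 called values of named genes, 49 kept their direction and call in every alternative, and of 1062 alternative values 65 lost the call and 0 reversed. Without a trend, 10 of the named calls were lost, the differences of AFAP1-AS1, ATP6V1B1-AS1, C1RL-AS1, FOXD2-AS1, FOXP4-AS1, LRRC75A-AS1, SLFNL1-AS1 and TTN-AS1 and the changes of FOXP4 and FRMD6.

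With the replicate number as a replicate block, 56 antisense genes were higher and 34 lower, and 50 pairs were above 0. Same-numbered libraries correlated in their deviations at 0.121, 0.104 and 0.0514 over 12251 genes, so the numbers were not taken to pair the samples, and not every library correlated best with its own number. The median SE of the change was 0.17 for antisense genes, and the part of depth in it was not tested.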

Other observations

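Antisense genes with a mean of at least 30 that have no sense partner of that name in the table, or whose symbol ends in AS without a digit, numbered 17, and these were not part of the comparisons above. FGD5-AS1 was the most abundant of them, at 5285, 4884 and 4915 normalized counts in DMSO and 3798, 3593 and 3815 in BRL-50481, and fell by 0.43 ± 0.05 (SE) on the log2 scale (adjusted p = 1.21e-05 by limma). BDNF-AS, opposite the gene of a neurotrophin, gave 29.8, 18.6 and 33.7 against 61.4, 56.4 and 38.8 and rose by 0.92 ± 0.27 (adjusted p = 0.00972). DLGAP1-AS1 and DLGAP1-AS2, named for 1 gene, both rose, by 0.66 ± 0.15 and 0.43 ± 0.17. DBH-AS1 rose by 0.55 and RPARP-AS1 by 0.34, while ASB16-AS1 fell by 0.33, CKMT2-AS1 by 0.32 and JHDM1D-AS1 by 0.49. The remaining 8 were not called.

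Antisense genes under the limit of 30 with a partner in the table numbered 194, of which 169 were tested. Of these, 37 rose (21.9%) and 7 fell (4.14%), with a median of 0.39. Of the 2448 genes of any kind tested with a mean under 30, 17.6% rose and 7.52% fell, with a median of 0.29. All had a mean under 30, so each was measured from few reads per library.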
